A study of Mus musculus with 4 samples.

Results

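The genes described here encode the ionotropic receptors of the inhibitory transmitter GABA and the ionotropic and metabotropic receptors of the excitatory transmitter glutamate. They were taken by gene symbol from the protein-coding genes of GENCODE version M1 on chromosomes 1 to 19, which gave 42 of 21418 genes. These are 16 GABA-A receptor genes, 17 ionotropic and 8 metabotropic glutamate receptor genes, and Grid2ip, a postsynaptic scaffold protein that entered because its symbol matches. Grid2ip is not a receptor and is described apart from the families.

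The study mapped acetylation of lysine 9 and lysine 14 of histone H3 in mouse embryonic stem (mES) cells by ChIP-seq. The labels name the E14 line, strain 129P2/OlaHsd, at passage 25-30 and without treatment, whereas the methods describe wild type cells derived from blastocysts. There are 4 libraries from these cells: H3K9ac (rabbit polyclonal antibody AB4441 from Abcam), H3K14ac with the mouse monoclonal antibody 13HH3, H3K14ac with the mouse monoclonal antibody 7G8, and input DNA without an antibody. Each antibody has 1 library, so no difference was tested, and the intervals given are exact 95% intervals that cover counting error only.

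At synapses, ionotropic receptors are ion channels built of several subunits, and each subunit has its own gene, while metabotropic glutamate receptors signal through G proteins. GABA-A channels pass chloride, and the AMPA, kainate and NMDA classes of glutamate channels pass cations. These genes are used mainly in neurons, and many of them have promoters rich in CpG dinucleotides, which in ES cells often carry both active and repressive histone marks. Acetylation of H3K9 and H3K14 is found at the starts of active genes.

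The promoters themselves differ widely in CpG content, and the sequences directly upstream of the TSS (transcription start site) are shown for the 3 genes with the highest H3K9ac ratio and the 3 genes with the fewest CpGs around the TSS. Each is written 5′ to 3′ on the strand of the gene, with every CpG in capitals, in build NCBIM37 (mm9). None of the stretches touches an annotated exon.
Grik3, chr4:125167744-125167943, plus strand: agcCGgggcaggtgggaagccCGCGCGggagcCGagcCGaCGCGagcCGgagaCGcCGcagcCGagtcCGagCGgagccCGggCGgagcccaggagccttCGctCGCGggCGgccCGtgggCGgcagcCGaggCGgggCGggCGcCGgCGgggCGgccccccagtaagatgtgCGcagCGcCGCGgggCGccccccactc
Gabrb1, chr5:72090971-72091170, plus strand: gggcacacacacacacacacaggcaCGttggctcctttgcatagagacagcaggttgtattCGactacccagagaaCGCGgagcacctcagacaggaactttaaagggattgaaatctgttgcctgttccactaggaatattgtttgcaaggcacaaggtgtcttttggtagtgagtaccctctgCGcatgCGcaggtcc
Grin2a, chr16:9995015-9995214, minus strand: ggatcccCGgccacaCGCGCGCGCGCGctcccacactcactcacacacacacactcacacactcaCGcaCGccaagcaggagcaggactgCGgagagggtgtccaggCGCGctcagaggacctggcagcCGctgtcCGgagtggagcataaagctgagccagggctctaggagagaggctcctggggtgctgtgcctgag
Grm5, chr7:94750752-94750951, plus strand: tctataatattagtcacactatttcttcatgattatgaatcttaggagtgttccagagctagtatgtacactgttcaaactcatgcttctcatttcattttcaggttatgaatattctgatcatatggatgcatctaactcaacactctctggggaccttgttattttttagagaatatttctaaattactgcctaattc
Gabra6, chr11:42134575-42134774, minus strand: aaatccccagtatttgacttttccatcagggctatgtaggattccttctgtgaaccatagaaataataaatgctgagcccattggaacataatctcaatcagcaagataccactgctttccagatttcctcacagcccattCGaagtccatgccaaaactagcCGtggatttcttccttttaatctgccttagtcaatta
Gabrp, chr11:33478960-33479159, minus strand: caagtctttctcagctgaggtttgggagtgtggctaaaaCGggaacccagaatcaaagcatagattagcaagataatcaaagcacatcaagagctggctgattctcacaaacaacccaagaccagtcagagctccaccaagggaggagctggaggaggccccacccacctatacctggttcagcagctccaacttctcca
The stretch of Grik3 holds 34 CpGs, that of Grin2a 14 and that of Gabrb1 6. Those of Gabra6, Gabrp and Grm5 hold 2, 1 and 0 CpGs.

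A tag, that is a read mapped to the genome, was placed 100 bp into its fragment from its 5′ end and counted where it fell in the 4 kb centred on the TSS. Counts were divided by the tags of the library, 23181544 for H3K9ac, 21626227 for 13HH3, 23837354 for 7G8 and 19313142 for input, and the log2 ratio over input is the measure used throughout unless another is named. The 3 ratios share the input library, so they are set side by side and not correlated with each other. Among genes of the ES cell state, H3K9ac was high at Zfp42, with a log2 ratio of 4.09, at Sox2 with 3.47, at Klf4 with 2.55, at Pou5f1 with 2.49 and at Nanog with 1.95, whereas Esrrb had 0.01. Of 4 genes of other tissues, Ins2 had 0.48, Cd3e 0.26, Alb -0.21 and Myh6 -0.85. For 13HH3 Zfp42 had 2.57, Sox2 2.07, Klf4 1.64, Esrrb 0.76, Pou5f1 0.55 and Nanog 0.30. Ins2 had 0.39, Cd3e 0.38, Alb -0.11 and Myh6 -0.21 for 13HH3. For 7G8 Zfp42 had 1.57, Sox2 1.08, Pou5f1 0.95, Klf4 0.71, Nanog 0.56 and Esrrb 0.26. Ins2 had 0.84, Alb 0.10, Cd3e 0.02 and Myh6 -0.66 for 7G8. The values of the ES cell genes and of the other genes thus overlapped in each ChIP library. All 42 members passed the minimum of 5 input tags, as did 20748 genes in all.

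The receptor genes had lower median ratios over input at their promoters than protein-coding genes as a whole. H3K9ac was the mark that reached most of them. For H3K9ac 11 of the 42 members were at least 2-fold over input, against 57.7% of all genes tested. For 13HH3 there were 2, against 16.6%, and for 7G8 there was 1, against 17.1%. The median ratio of the members was 0.67 for H3K9ac, 0.26 for 13HH3 and -0.05 for 7G8, beside 1.32, 0.36 and 0.36 over all genes. The median input count was higher in the members, with 44 tags beside 36 over all genes. Median ChIP counts were 83.5 beside 126 tags for H3K9ac, 53.5 beside 56 for 13HH3 and 52.5 beside 60 for 7G8. The lower median ratios are thus not a measure of ChIP tags alone, and the part of the higher input in them was not tested. The number of members at least 2-fold over input for H3K9ac depends on the window, with 17 members within 1 kb (64.1% of all genes) and 4 within 5 kb (45.1%). It also depends on the scaling, with 22 members (65.3% of all genes) when libraries were scaled by bins of 10 kb, which raises each H3K9ac ratio by 0.35. For 13HH3 the count was 6 within 1 kb (27.5% of all genes) and 0 within 5 kb (5.70%), and for 7G8 it was 0 in both windows (26.2% and 5.10%).

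**Figure D1:**
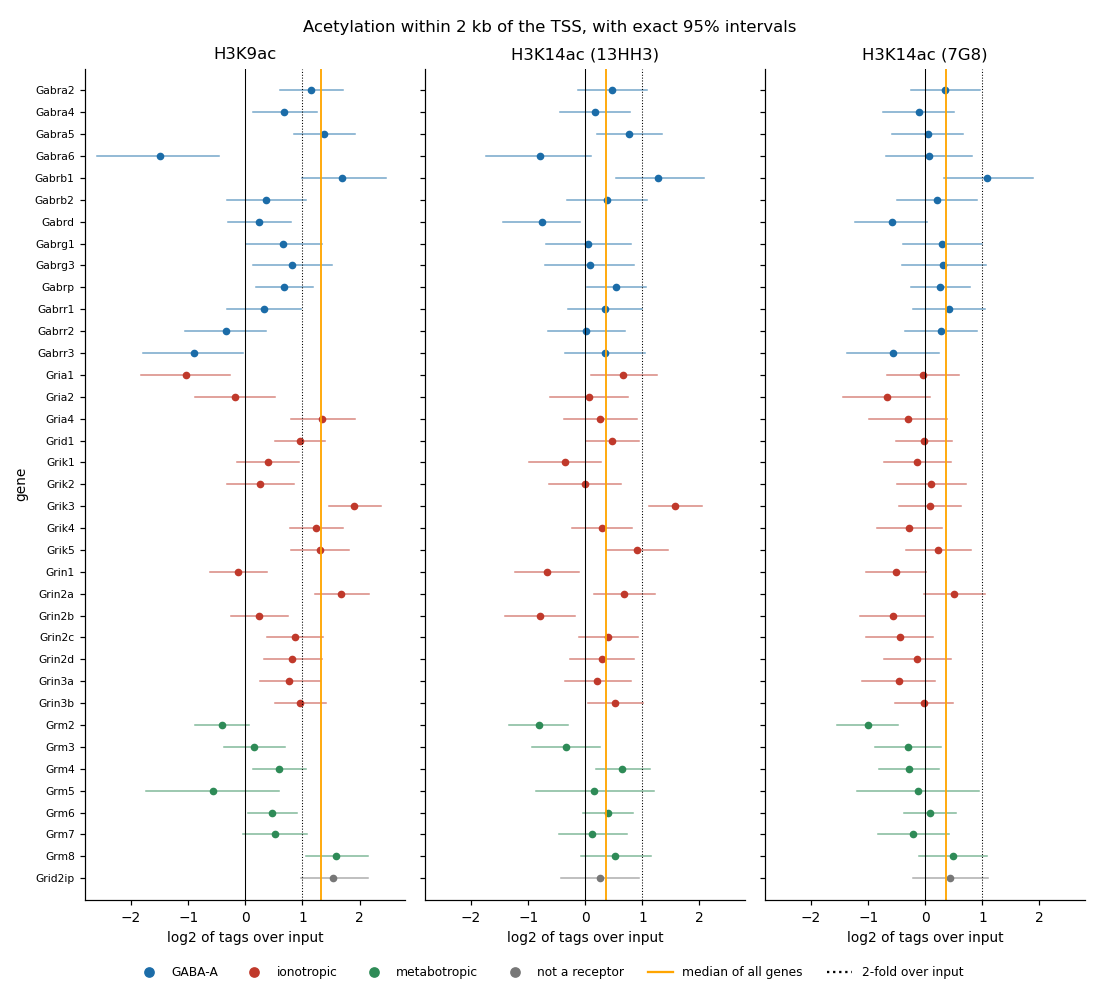
Log2 ratio of tags over input within 2 kb of the TSS for 37 of the 42 genes, one panel for each ChIP library, with points for the ratio and bars for exact 95% counting intervals. The median of all genes (orange line) lies at 1.32 for H3K9ac, 0.36 for 13HH3 and 0.36 for 7G8, and Grik3 and Gabrb1 alone lie beyond 2-fold (dotted line) for 13HH3.

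Counting error leaves many of the intervals spanning the input level. The interval lay wholly above input in 24 members for H3K9ac (66.6% of all genes), in 10 for 13HH3 (34.3%) and in 1 for 7G8 (33.6%). It lay wholly below input in 4 members for H3K9ac (7.21% of all genes), in 7 for 13HH3 (4.58%) and in 3 for 7G8 (4.94%). For H3K9ac the count below input came to 1 under the scaling by bins of 10 kb (Gabra6, 2.99% of all genes) and to 1 within 1 kb (Gabrr3, 4.83%), but to 6 within 5 kb (12.1%). For 7G8 it came to 6 under that scaling (5.87%) and to 8 within 5 kb (10.5%). For 13HH3 it came to 4 within 1 kb (2.65%) and to 9 within 5 kb (9.06%). The count above input for H3K9ac came to 15 within 5 kb (64.4%) and to 31 under the scaling (72.1%). A window of enrichment (peak) called against a local Poisson rate touched the 4 kb of 26 members for H3K9ac, of 12 for 13HH3 and of 2 for 7G8. Over all genes these shares were 68.3%, 30.0% and 26.9%. The peak counts depend on the threshold, and at 1e-10 they were 18 for H3K9ac (59.2% of all genes), 1 for 13HH3 (9.01%) and 0 for 7G8 (6.52%).

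The kainate receptor subunit gene Grik3 had the highest ratio for both H3K9ac and 13HH3. Its window held 234 H3K9ac, 172 13HH3, 68 7G8 and 52 input tags, with 259 CpGs. For H3K9ac this is a log2 ratio of 1.91 (1.47 to 2.37), for 13HH3 of 1.56 (1.11 to 2.04) and for 7G8 of 0.08 (-0.46 to 0.63). The antibodies against H3K14ac therefore gave different values at this gene, and the interval of 7G8 spans the input level. Among all genes tested Grik3 stood at percentile 95.5 for 13HH3 and at percentile 66.2 for H3K9ac.

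Gabrb1, a beta subunit of the GABA-A channel, was the only member past 2-fold for all 3 ChIP libraries. It held 82 H3K9ac, 57 13HH3, 55 7G8 and 21 input tags. The ratios were 1.70 (1.00 to 2.47), 1.28 (0.53 to 2.07) and 1.09 (0.34 to 1.89) for H3K9ac, 13HH3 and 7G8. Its input count of 21 was low beside the member median of 44, so the intervals are wide. Its H3K9ac, 13HH3 and 7G8 counts were close to the member medians of 83.5, 53.5 and 52.5. The part of the low input count in these ratios was not tested. The 7G8 ratio fell short of 2-fold within 1 kb, within 5 kb and with 5′ ends left in place. Peaks of the 3 libraries lie downstream of the TSS, with centres at 1229 bp for H3K9ac, 1354 bp for 13HH3 and 1379 bp for 7G8.

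Among the alpha subunits of the GABA-A channel, which form the GABA site together with beta subunits, Gabra5 and Gabra2 were past 2-fold for H3K9ac. Gabra5 held 128 H3K9ac, 78 13HH3, 52 7G8 and 41 input tags. Its ratios were 1.38 (0.86 to 1.92) for H3K9ac, 0.76 (0.20 to 1.35) for 13HH3 and 0.04 (-0.58 to 0.67) for 7G8. Gabra2 held 106, 62, 63 and 40 tags in the same order, and only its H3K9ac ratio, 1.14 (0.61 to 1.71), was wholly above input. Gabra4 had 0.69 for H3K9ac.

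Gabra6, an alpha subunit known from cerebellar granule cells, had the lowest H3K9ac ratio of the 42 genes. It held 12 H3K9ac, 18 13HH3, 36 7G8 and 28 input tags. Its ratios were -1.49 (-2.60 to -0.46), -0.80 (-1.74 to 0.10) and 0.06 (-0.69 to 0.83) in the order of the ChIP libraries. H3K9ac was below input at this gene, while 7G8 was at the level of input. Gabra6 has 29 CpGs and no CpG island within the window.

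Gabra4 is also one of the genes that the study tested by ChIP-qPCR, as a promoter with both active and repressive marks (bivalent). The paper reports H3K9ac and H3K14ac at these loci by that method, and a rise of both at Gabra4 after sodium butyrate. Its window held 83 H3K9ac, 54 13HH3, 49 7G8 and 43 input tags. The ratios were 0.69 (0.14 to 1.25), 0.17 (-0.44 to 0.78) and -0.12 (-0.74 to 0.51). Only H3K9ac lay above input beyond counting error. The study's primers, shown because they fix the site tested, match chr5:72049323-72049463, which is a UTR exon.
Gabra4 forward: caagcttgcaagtgctgctca
Gabra4 reverse: ttggggttttgaagtcgctga
In 1000 bp around this amplicon there were 49 H3K9ac, 17 13HH3, 19 7G8 and 11 input tags, and H3K9ac alone had a peak there. The H3K9ac ratio was 1.89 (0.93 to 2.98), higher than over the whole window, and that of 13HH3 was 0.46 (-0.71 to 1.70). With 11 input tags these intervals are wide, so they do not show that H3K14ac is absent there.

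The beta subunit gene Gabrb2 had ratios of 0.37, 0.37 and 0.20, with no interval clear of input.

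Other GABA-A subunit genes had lower ratios than Gabrb1. The gamma subunits are needed for the benzodiazepine site. Among their genes Gabrg3 had 0.81 and Gabrg1 0.67 for H3K9ac, both with the interval just above input, and the predicted gene Gm9962 starts 116 bp from the TSS of Gabrg3. Gabrd, the delta subunit, held 71 H3K9ac, 33 13HH3, 41 7G8 and 50 input tags, and its 13HH3 ratio of -0.76 (-1.44 to -0.10) was below input. Gabrp, the pi subunit found mainly outside the brain, had 0.68 (0.19 to 1.18) for H3K9ac and 0.54 (0.04 to 1.06) for 13HH3 with only 40 CpGs, although the latter was -0.026 within 1 kb. None of the 3 rho subunit genes, known from the retina, had an H3K9ac interval above input, and Gabrr3 had -0.90 (-1.78 to -0.04).

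Many GABA-A receptor genes lie in clusters, of which a cluster on chromosome 5 and a pair on chromosome 4 are given here. On chromosome 5 the TSSs of Gabrg1, Gabra2, Gabra4 and Gabrb1 held 330 H3K9ac, 209 13HH3, 214 7G8 and 135 input tags together. The H3K9ac ratio was 1.03 (0.73 to 1.33), and 4 of 4 genes had an interval above input, beside 66.6% of all genes. The intervals of Gabrg1 and Gabra4 began at 0.01 and 0.14. The ratios of 13HH3 and 7G8 over the 4 genes were 0.47 (0.15 to 0.79) and 0.36 (0.04 to 0.68). On chromosome 4 the rho genes Gabrr2 and Gabrr1 held 89 H3K9ac, 93 13HH3, 114 7G8 and 73 input tags, with an H3K9ac ratio of 0.02 (-0.44 to 0.49). CpG numbers run from 47 to 100 on chromosome 5 and from 44 to 53 on chromosome 4, and the part of CpG number in these values was not tested.

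**Figure D2:**
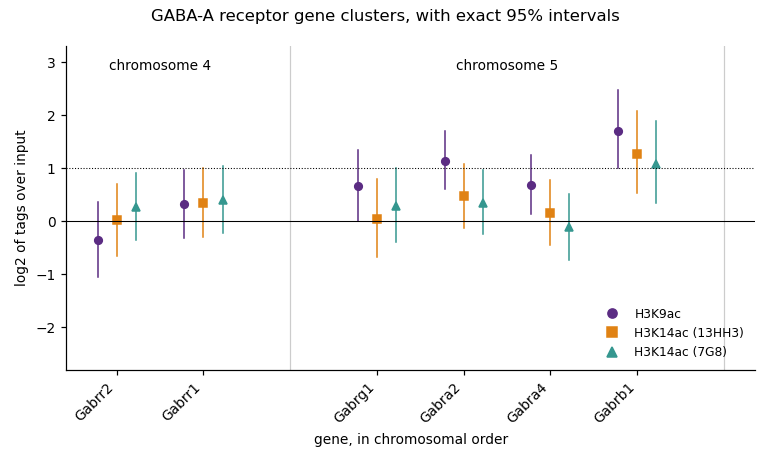
Log2 ratio of tags over input within 2 kb of the TSS for GABA-A receptor genes clustered on chromosomes 4 and 5, in the order of their position, with exact 95% counting intervals as bars. The H3K9ac points on chromosome 5 run from 0.67 to 1.70, whereas those on chromosome 4 run from -0.34 to 0.32.

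Acetylation at the AMPA receptor genes, whose channels carry fast excitation, differed from gene to gene and between libraries. Gria1 held 24 H3K9ac, 73 13HH3, 49 7G8 and 41 input tags. H3K9ac had a ratio of -1.04 (-1.83 to -0.27) and 13HH3 one of 0.67 (0.10 to 1.26), on opposite sides of input in this window. The other antibody against H3K14ac, 7G8, had -0.05 (-0.67 to 0.59), at the level of input. The H3K9ac interval reached the input level within 1 kb and under the scaling by bins of 10 kb. Taken directly against each other, 13HH3 exceeded H3K9ac at Gria1 by 1.71 on the log2 scale, the largest such value among the members. Gria4 showed the other pattern, with 116 H3K9ac, 51 13HH3, 38 7G8 and 38 input tags. Here H3K9ac had a ratio of 1.35 (0.81 to 1.92) and 13HH3 one of 0.26 (-0.37 to 0.91). Gria2 held 38 H3K9ac, 42 13HH3, 28 7G8 and 36 input tags, and none of its ratios was clear of input, the lowest being -0.67 (-1.43 to 0.09) for 7G8.

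Of the 5 kainate receptor genes 3 (60%) were past 2-fold for H3K9ac, beside 57.7% of all genes. Besides Grik3 these were Grik5, with 133 H3K9ac, 94 13HH3, 65 7G8 and 45 input tags, and Grik4, with 155, 75, 56 and 55. The H3K9ac ratios were 1.30 (0.80 to 1.82) for Grik5 and 1.23 (0.78 to 1.70) for Grik4. For 13HH3 Grik5 had 0.90 (0.37 to 1.45), the third highest of the members. Grik1 and Grik2, which encode subunits that can form channels by themselves, had 0.39 and 0.26 for H3K9ac, and their intervals spanned the input level. A peak of H3K9ac touched the window of each of the 5 kainate receptor genes, beside 68.3% of all genes.

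The NMDA receptor genes encode the coincidence detectors of excitatory synapses, and their ratios differed from gene to gene. Grin1, the subunit present in every NMDA receptor, held 75 H3K9ac, 48 13HH3, 59 7G8 and 68 input tags. Its H3K9ac ratio was -0.12 (-0.62 to 0.37) and its 13HH3 ratio -0.67 (-1.23 to -0.11). The member medians were 53.5 tags for 13HH3 and 44 for input. Grin2a held 185 H3K9ac, 86 13HH3, 84 7G8 and 48 input tags. Its ratios were 1.68 (1.22 to 2.17), 0.68 (0.15 to 1.22) and 0.50 (-0.02 to 1.05). Grin2b, with 85 H3K9ac, 39 13HH3, 50 7G8 and 60 input tags, had 0.24 (-0.25 to 0.74) for H3K9ac, while 13HH3 was at -0.78 (-1.41 to -0.18). So Grin2a was above input for H3K9ac and 13HH3, and Grin2b was below input for 13HH3. Grin3b, Grin2c, Grin2d and Grin3a had 0.96, 0.86, 0.82 and 0.77 for H3K9ac, each with an interval above input. The TSS of Kdelr1 lies 1844 bp from that of Grin2d, so tags of Kdelr1 cannot be told apart from those of Grin2d in this window. At the start of its longest coding sequence, 3799 bp away, Grin2d had 1.27 (0.73 to 1.84) for H3K9ac. In all 6 members have the start of another gene in the window. Besides Grin2d and Gabrg3 these are Grin2c, with a transcript of Fdxr at 1771 bp, and Grin2b, with a lincRNA at 450 bp. The metabotropic genes Grm7 and Grm6 have other transcripts starting at 335 and 1897 bp.

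Grid1 encodes a delta receptor, related in sequence to the glutamate channels. It held 153 H3K9ac, 102 13HH3, 80 7G8 and 66 input tags, with ratios of 0.95 (0.52 to 1.39) for H3K9ac and 0.46 (0.00 to 0.93) for 13HH3. Grid2ip, the scaffold protein, held 115 H3K9ac, 44 13HH3, 55 7G8 and 33 input tags. Its H3K9ac ratio was 1.54 (0.97 to 2.14) and its 7G8 ratio 0.43 (-0.22 to 1.10). An alternative added after seeing the data took the annotated TSS with the most CpGs within 500 bp, which for Grid2ip lies 12754 bp away. There Grid2ip had 0.06 (-0.45 to 0.58) for H3K9ac, with 81 CpGs within 2 kb beside 83 at the main TSS. Without Grid2ip 10 of 41 receptor genes were past 2-fold.

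Of the metabotropic receptor genes only Grm8 was past 2-fold, for H3K9ac. Grm8, a group III receptor that lowers transmitter release, held 141 H3K9ac, 63 13HH3, 67 7G8 and 39 input tags. The ratios were 1.59 (1.07 to 2.14), 0.53 (-0.07 to 1.14) and 0.48 (-0.11 to 1.09). It was one of the 2 members with a 7G8 peak in the window. Grm8 is likewise among the bivalent loci at which the paper reports both marks by ChIP-qPCR. The primers that the study used at Grm8 match chr6:28084789-28084908, within the gene and outside the annotated exons.
Grm8 forward: tggctgtcagctgcatggtt
Grm8 reverse: gcaaaagaaagcccccacct
Around this amplicon 1000 bp held 31 H3K9ac, 24 13HH3, 17 7G8 and 11 input tags. The H3K9ac ratio was 1.23 (0.20 to 2.37) and that of 13HH3 was 0.96 (-0.12 to 2.14), with a peak for H3K9ac alone.

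Neither group II receptor gene had an interval above input for any ChIP library. Grm2, a group II receptor that acts through Gi, held 75 H3K9ac, 53 13HH3, 51 7G8 and 83 input tags, and its 7G8 ratio of -1.01 (-1.54 to -0.49) was the lowest of the members. For 13HH3 Grm2 had -0.81 (-1.34 to -0.30). The 13HH3 and 7G8 ratios of Grm2 thus lay below input, but they share its input count and are not independent. That count of 83 tags was the highest of the members, whose median was 44. The 13HH3 and 7G8 counts of Grm2, 53 and 51, were close to the member medians of 53.5 and 52.5. The part of the high input count in these low ratios was not tested. Grm5, a group I receptor that raises calcium through Gq, held 13 H3K9ac, 20 13HH3, 18 7G8 and 16 input tags, too few to separate any ratio from input. Grm3 had 0.16 for H3K9ac, and the group III genes Grm4, Grm7 and Grm6 had 0.59, 0.51 and 0.47. For Grm4 and Grm6 the interval lay above input within 2 kb, but within 5 kb the ratios were -0.11 (-0.42 to 0.20) and -0.10 (-0.39 to 0.19). Grm4 also had 0.65 (0.19 to 1.12) for 13HH3, which was -0.0027 within 5 kb.

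Averaged over the members, H3K9ac was highest just downstream of the TSS and lower than over all genes. In bins of 100 bp the H3K9ac tags of the members summed to 133 centred at 250 bp upstream, 103 at 50 bp upstream and 166 at 50 bp downstream. The input tags of the same bins were 51, 36 and 64, so the fewer tags directly upstream of the TSS were shared by the input. In bins of 500 bp the members reached 2.42 times the input (2.12 to 2.77) for H3K9ac at 250 bp, beside 4.16 times for all genes. For 13HH3 the maximum was 1.49 times (1.29 to 1.73) at the same place, beside 1.78. For 7G8 the level within 500 bp was 1.00 times the input (0.89 to 1.13), beside 1.44 for all genes. So 7G8 showed no rise over input at the TSS of the receptor genes that was detectable at this depth.

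**Figure D3:**
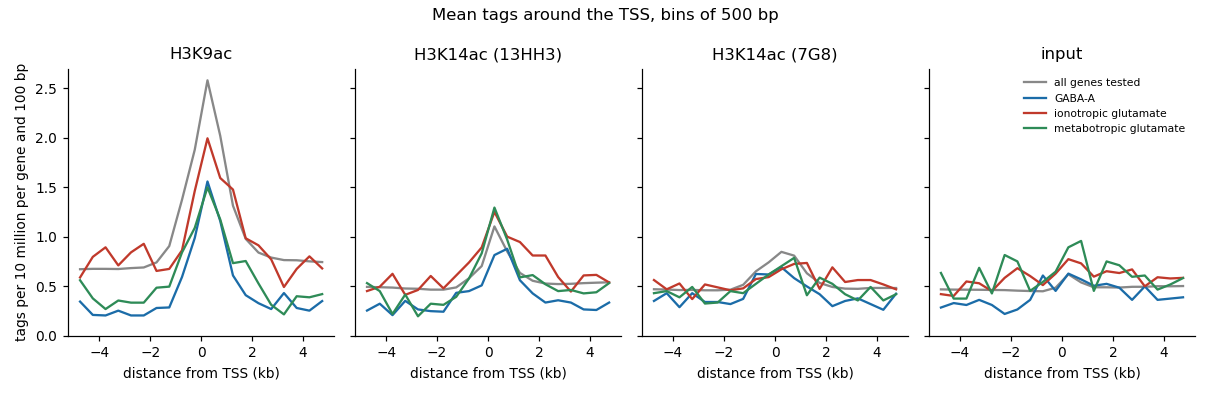
Mean tags per 10000000 tags of the library, per gene and 100 bp, against the distance from the TSS in kb, in bins of 500 bp, for all genes tested and for the 3 receptor classes, one panel for each library. H3K9ac of every receptor class peaks near the TSS below the line of all genes, and the input of the receptor genes also rises around the TSS.

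Among genes with at least 100 CpGs around the TSS, the receptor genes had lower H3K9ac ratios than genes as a whole, whereas below 100 CpGs the measures pointed different ways. The members had a median of 97.5 CpGs within 2 kb, from 22 at Grm5 to 265 at Grm4, beside 88 over all genes, and 39 of 42 (92.9%) touched a CpG island, against 73.4%. Of the 20 members with at least 100 CpGs, 6 (30.0%) were past 2-fold for H3K9ac, with a median ratio of 0.73. Among all genes with at least 100 CpGs the share was 88.6% and the median 2.04. Median H3K9ac counts were 113.5 tags in these members and 185 in all such genes, and median input counts were 49.5 and 38. Below 100 CpGs the shares were 22.7% for the 22 members and 34.5% for all genes, but the median ratios were 0.49 and 0.38. For 13HH3 the medians below 100 CpGs were 0.24 and 0.16, and for 7G8 they were 0.08 and 0.19. The groups below 100 CpGs differ in CpG number, with a median of 77 in the members and 51 in all genes, and 86.4% and 53.4% of them touched an island. Across the 42 genes the Spearman correlation of CpG number with the ratio was 0.50 for H3K9ac, 0.29 for 13HH3 and -0.18 for 7G8. Over all genes it was 0.69, 0.48 and 0.33. These are descriptions across genes of single libraries, which share the input and the base composition, and CpG number also went with the input tags themselves (0.52 in the members and 0.19 in all genes). The genes are long, with a median length of 126 kb against 16 kb.

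**Figure D4:**
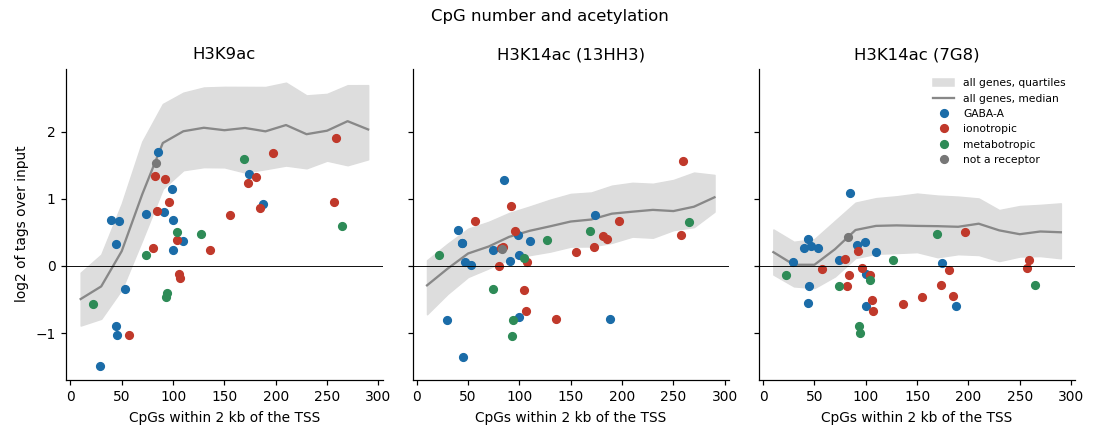
Log2 ratio of tags over input against the number of CpGs within 2 kb of the TSS, one panel for each ChIP library, with points for the 42 genes by class and a line and band for the median and quartiles of all genes in steps of 20 CpGs. For H3K9ac most receptor genes with 100 CpGs or more lie below the band, with a median of 0.73 against 2.04 for all such genes.

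The H3K14ac antibodies were also compared directly, without the input. The median log2 ratio of 13HH3 over H3K9ac was -0.49 in the members and -0.93 over all genes. It was -0.39 in the receptor genes for other transmitters and -0.64 in the other genes of GABA and glutamate transmission. Over all genes the Spearman correlation of CpG number with this ratio was -0.62, and the median was -0.29 in all genes below 100 CpGs. The interval lay wholly below 0 in 23 members, against 63.1% of all genes, and wholly above 0 in 2, against 5.43%. These 2 were Gria1, given above, and Gabrr3, with 20 H3K9ac, 44 13HH3, 26 7G8 and 31 input tags and a value of 1.24. The median of 13HH3 over 7G8 was 0.19 in the members and 0.01 over all genes. But it was also 0.20 in the 53 genes of the other receptor list, and 0.19 in 47 other genes of GABA and glutamate transmission. The interval lay above 0 in 12 members (28.6%), against 11.2% of all genes, 18.9% of the other receptor genes and 12.8% of the other transmission genes, and below 0 in 2, among them Gabra6, against 8.50%.

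The excess of 13HH3 over 7G8 lay mostly in the ionotropic glutamate receptor genes, where it was found in 9 of 17 with a median of 0.55. In the GABA-A receptor genes it was found in 2 of 16, with a median of 0.02, and in the metabotropic genes in 1 of 8. The highest value was 1.48 at Grik3, with 172 tags for 13HH3 and 68 for 7G8. Grm4 followed with 0.93, Gabrr3 with 0.90 and Grin2c with 0.85. The ionotropic genes also have more CpGs, with a median of 107 against 79.5 for the GABA-A genes. The Spearman correlation of CpG number with 13HH3 over 7G8 was 0.37 over the members and 0.21 over all genes. With at least 100 CpGs it was 0.50 over the members and 0.29 over all genes. Among the genes with at least 100 CpGs, 6 of 11 ionotropic genes had the interval above 0, against 15.1% of all such genes.

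**Figure D5:**
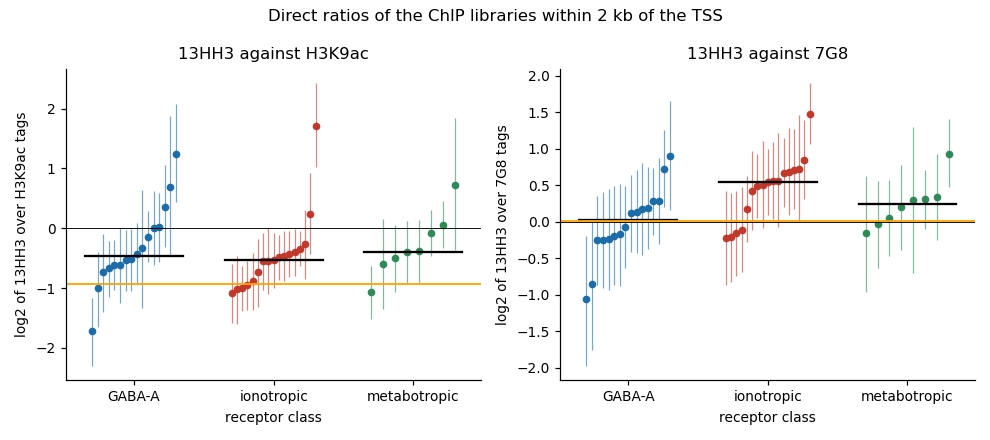
Log2 ratio of 13HH3 tags over H3K9ac tags (left) and over 7G8 tags (right) within 2 kb of the TSS by receptor class, with exact 95% counting intervals, the class median (black bar) and the median of all genes (orange line). The class medians of 13HH3 over 7G8 are 0.55 for ionotropic, 0.24 for metabotropic and 0.02 for GABA-A receptor genes.

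The RE1 element, bound by the repressor REST, is known from many neuronal genes, and it was searched within 2 kb of the TSS on both strands. A match was found in 6 of the 42 genes (14.3%), against 0.896% of all genes tested. The list of receptor genes for other transmitters, with its kinase genes, had one in 6 of 53 (11.3%). Matches of 3 of these genes are shown on the strand on which they were found, since they mark the promoters compared next.
Grin1, chr2:25174538-25174553: TCAGCACCTCGGACAG
Gria2, chr3:80605741-80605756: TCAGAGCCCTGGAGAG
Gria2, chr3:80606912-80606927: TTAGCACCGCGGACAG
Grin3a, chr4:49856898-49856913: TCAGAACCGTGGACAG
None of the 6 genes with a match was past 2-fold for H3K9ac, and 11 of the 36 without one were, beside 43.5% and 57.9% of all genes with and without a match. The median H3K9ac ratio was -0.15 with a match and 0.68 without, and for 13HH3 it was -0.73 and 0.31. With H3K9ac scaled by bins of 10 kb, which adds 0.35, the median with a match comes to lie above input. Over all genes the medians for H3K9ac were 0.82 with a match and 1.33 without, and in the receptor genes for other transmitters they were 0.26 and 0.66. The CpG median was 106.5 with a match and 95 without. A match describes these letters in the window, and binding of REST was not measured here.

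Beyond 2 kb, the bodies of the receptor genes had less H3K9ac than those of all genes, while the other ChIP libraries lay closer to input. All genes here means the 17828 genes tested that have a body beyond 2 kb, among them the 42 members. The H3K9ac ratio over these bodies was -0.54 for the members and 0.11 for all genes. For 13HH3 it was -0.13 beside 0.08, and for 7G8 0.04 beside -0.05. Peaks of H3K9ac numbered 5.61 per Mb against 42.6, those of 13HH3 7.65 against 27.7 and those of 7G8 2.58 against 10.6. In all there were 63 peaks of H3K9ac, 86 of 13HH3 and 29 of 7G8, of which 31, 74 and 26 lay in introns. Grik3, Grik4, Grid1 and Grin2a held 41.3% of these peaks for H3K9ac, 55.8% for 13HH3 and 41.4% for 7G8. A body peak of H3K9ac was present in 54.8% of the members and in 56.2% of all genes, whereas one of 13HH3 was present in 59.5% and 36.1% and one of 7G8 in 38.1% and 23.8%. The bodies of the members are longer, so the share with a peak and the number per Mb are different quantities.

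The strongest of these sites lies in an intron of Grik3, 119 kb downstream of the TSS, at chr4:125286151-125288100. It held 208 H3K9ac, 120 13HH3, 89 7G8 and 29 input tags. The ratios were 2.58 (2.01 to 3.19) for H3K9ac, 1.89 (1.29 to 2.52) for 13HH3 and 1.31 (0.70 to 1.97) for 7G8, and all 3 ChIP libraries had a peak there. The site is narrower than the promoter window and was chosen for its tags, so these ratios are a description and are not set against those of the promoter. The middle of the site, chr4:125287026-125287225 on the plus strand, is shown with CpGs in capitals, since it holds 2 of them against the 34 of the Grik3 promoter stretch above.
Grik3 intron: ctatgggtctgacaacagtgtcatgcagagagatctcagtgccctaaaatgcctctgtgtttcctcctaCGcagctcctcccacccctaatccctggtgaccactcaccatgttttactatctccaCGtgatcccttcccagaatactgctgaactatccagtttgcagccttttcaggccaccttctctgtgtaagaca
The whole site holds 28 CpGs in 1950 bp.

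Of 47 other genes of GABA and glutamate transmission, 25 (53.2%) were past 2-fold for H3K9ac, beside 57.7% of all genes, and their median ratio was 1.03 beside 1.32. For 13HH3 their median was 0.38, beside 0.36 for all genes. The highest were Gphn, which encodes the scaffold gephyrin of inhibitory synapses, with 3.20, Homer1, a scaffold of excitatory synapses, with 3.10, and Nsf, a factor of membrane fusion used in all cells, with 2.53. Cacng7, an auxiliary subunit of AMPA receptors, had 2.52, as had Gabarap, which acts in receptor trafficking and autophagy. The lowest were the auxiliary subunit genes Cacng2 with -1.34 and Cacng3 with -1.15, and the scaffold gene Shank2 with -0.80. Among receptor genes for other transmitters 15 of 53 (28.3%) were past 2-fold for H3K9ac with a median of 0.66, a list that also holds kinase genes whose symbols match.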

How the data were processed

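Chromatin of mouse ES cells was cross-linked, sonicated and immunoprecipitated, and fragments of selected size were sequenced. The authors aligned reads of 36 bases to mm9 with ELAND and deposited lines that each give the position and strand of a mapped read. The deposited score is 1 on every line, carries no measurement and was not used. The deposited positions carry no normalization. Chromosomes 1 to 19, X and Y gave 19313142 to 23837354 usable tags per library. Repeats of a position and strand occur only in the 13HH3 library (738619 tags, 3.30%), and 1 of each was kept. The deposited files of H3K9ac, 7G8 and input hold each position and strand only once.

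Tags were placed 100 bp downstream of their 5′ end and counted up to 2 kb from the TSS, taken as the 5′ end of the gene record in GENCODE version M1. Ratios over input of tags per 10000000 tags of the library have exact 95% intervals from the binomial distribution of the tags, without a pseudocount, and genes needed 5 input tags. Intervals cover counting error only, and PCR copies are not independent molecules. Peaks are windows of 400 bp above a Poisson rate at a probability of 1e-05, with the rate taken from the genome or from input in 1000, 5000 and 10000 bp. CpG islands needed 200 bp, a GC share of 0.5 and an observed over expected ratio of 0.6. GABA-A genes within 2 Mb of each other formed a cluster. Counting and peak calling were tested on simulated data. Python 3.11.15, numpy 2.4.6, scipy 1.17.1, pandas 2.3.3, pysam 0.24.0 and matplotlib 3.10.9 were used.

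The members and lists were chosen with earlier results of these data known. Named in full are Gabra4 and Grm8, members past 2-fold, the 4 highest and 4 lowest of each ChIP library, and of the other genes of transmission the 5 highest and 3 lowest for H3K9ac. Sequences are those of the 3 highest members for H3K9ac, the 3 with the fewest CpGs and the primers of Gabra4 and Grm8, and the site in Grik3 and the RE1 matches were added after their values were seen. Receptor genes on the X chromosome were not used, and neither was expression or other published data. A few members are counted in every total and are not reported one by one here.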

Additional observations from a re-analysis of the deposited data

How the results depend on the processing

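No paired analysis was possible because each antibody has 1 library, and no library could be left out. Of 118 alternative values of the counts, medians and correlations, 100 stayed within the limits set for a move and 18 did not. A count moved when it changed by more than a set factor. A median or correlation moved when it left the 95% interval of the main value. Within 1 kb the members past 2-fold were 17 for H3K9ac, 6 for 13HH3 and 0 for 7G8, the H3K9ac median was 0.93, members with a 7G8 peak were 1 and the median of 13HH3 over H3K9ac was -0.66. Within 5 kb the members past 2-fold were 4, 0 and 0, the medians of H3K9ac and 13HH3 were 0.23 and -0.014, and that of 13HH3 over H3K9ac was -0.35. With 5′ ends not moved, 0 members were past 2-fold for 7G8. Scaling by bins of 10 kb gave 22 members past 2-fold for H3K9ac, a median of 1.03 and -0.77 for 13HH3 over H3K9ac. It shifts ratios by 0.35 for H3K9ac, 0.07 for 13HH3 and -0.05 for 7G8, and of the 4 members below input for H3K9ac it left 1, Gabra6. At 1e-10, 1 member had a 13HH3 peak and 0 a 7G8 peak. The cause of these moves was not tested. Among the ratios of the 37 genes given singly 966 alternative values were alike, 28 moved and 5 turned: within 1 kb Gabrp (-0.026) for 13HH3, and within 5 kb Grm6 (-0.10) and Grm4 (-0.11) for H3K9ac and Grin3b (-0.036) and Grm4 (-0.0027) for 13HH3. A TSS with the most CpGs within 500 bp and leaving out Grid2ip, both chosen after seeing the data, kept the counts and medians within these limits. Without Grid2ip the members past 2-fold for H3K9ac were 10 in place of 11, and those with an H3K9ac peak 25 in place of 26. At the TSS of its longest coding sequence, 233526 bp away, Grik1 had -1.44 for H3K9ac. With 16 to 83 input tags per member, ratios under about 2-fold are often not detectable.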
